A study of Mus musculus with 38 samples.

Results

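The collagen chain genes of the mouse were followed in primary embryonic fibroblasts that carried the RelA-TA knock-in allele of the NF-kB subunit RelA or were wild type, before and after exposure to TNF, LPS or Poly(I:C). Members were all genes whose symbol consists of Col, a number, the letter a and a number. This gave 44 genes among 45706 gene identifiers, 45143 of which have a symbol, and the rule uses no measured value. The 38 libraries were made from poly(A) RNA of C57BL/6 embryonic fibroblasts in primary culture that had been kept overnight in medium with 0.5% bovine calf serum. One table held 20 libraries, 2 for each of RelA-TA-KI homozygous and wild-type (WT) cells exposed to 10 ng/ml TNF for 0.5, 1, 3 or 8 h or left untreated. A second table held 18 libraries, 1 for each of RelA-TA-KI and WT cells exposed to 100 ng/ml LPS or to 20 ug/ml Poly(I:C) for 0.5, 1, 3 or 8 h or left untreated. TNF is an inflammatory cytokine, LPS a component of the bacterial outer membrane, and Poly(I:C) a synthetic double-stranded RNA that cells sense as viral. The labels name the knock-in allele without describing it, and do not say whether replicate numbers mark embryos, cultures or days. The p-values therefore measure only the spread between these samples, which may be technical between the RelA-TA-KI replicates. The WT replicates of the TNF table differed in the sex-linked genes Xist and Ddx3y, given below, so they are not repeats of the same cells.

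Collagen chains wind into helical trimers, which are secreted and cut, and then joined into fibres or networks outside the cell. Fibrillar chains build the load-bearing fibres, FACIT chains sit on the surface of fibres, type IV chains form the sheet of basement membranes, type VI chains form beaded filaments, and types VIII and X form networks. Fibroblasts are a main source of types I, III, V and VI. NF-kB, which TNF, LPS and Poly(I:C) all activate, binds a short DNA motif and, through RelA, drives transcription of many inflammatory genes.

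Read counts per gene are given as CPM, the count of a gene divided by the library total and scaled to a common size, with TMM factors within each table, and as CPM per kilobase of exon (RPKM) where levels of different genes are set beside each other. Total counts per library were 6715022 to 9590932 in the TNF table and 7021799 to 9431334 in the second table. The summed CPM of 8 fibroblast markers, including Vim and Prrx1, was 4844 to 5517 in RelA-TA-KI and 4457 to 5558 in WT libraries of the TNF table. All 13 macrophage markers were detected in every library, and their summed CPM was 1086 to 3878 in RelA-TA-KI and 985 to 2057 in WT libraries of the TNF table, with the highest value in RelA-TA-KI TNF 8 h replicate 2. In the second table that sum was 3368 to 5352 in RelA-TA-KI and 4219 to 5662 in WT libraries. Xist, expressed from the inactive X chromosome of females, and Ddx3y, a Y-linked gene, also differed between the cells. In the TNF table, WT replicate 2 had 2.32 to 3.90 CPM of Xist and 128 to 160.0 CPM of Ddx3y, while the other replicate sets had 337 to 517 CPM of Xist and at most 0.676 CPM of Ddx3y. In the second table, RelA-TA-KI libraries had 0.464 to 1.49 CPM of Xist and WT libraries 251 to 438 CPM, with Ddx3y at 127 to 183 CPM in RelA-TA-KI and 55.9 to 98.5 CPM in WT libraries. Rela itself had 67.2 to 128 CPM in RelA-TA-KI and 71.9 to 163 CPM in WT libraries of the TNF table, which checks no label because a knock-in need not change the mRNA level. In bulk RNA, fewer cells of a type and less RNA per cell cannot be told apart.

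Collagen mRNA made up 3.10% to 4.90% of all counts in the TNF table and 4.67% to 6.96% in the second table, and a few chains made up most of it. In the TNF table the 8 highest chains by mean RPKM held 86.5% of collagen counts, and the same 8 chains led in the second table with 91.0%. Col1a1, one of the chains of type I collagen, the main protein of skin, tendon and bone, averaged 1860.3 ± 283 RPKM (SD, n = 20 libraries of all conditions). Its partner in the type I trimer, Col1a2, averaged 636 ± 103 RPKM, and Col3a1, the type III chain that shares fibres with type I, averaged 462 ± 117 RPKM. Together these chains held 61.4% of collagen counts in the TNF table and 75.8% in the second.

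The next chains belonged to types V, IV and VI. Col5a2 and Col5a1, chains of the type V collagen that starts type I fibres, averaged 329.7 ± 16.8 and 301 ± 34.2 RPKM (SD, n = 20). Col4a1 and Col4a2, which form the type IV network found in nearly all basement membranes, averaged 305 ± 34.8 and 232 ± 22.2 RPKM, and Col6a1, a beaded filament chain, 175 ± 32.3 RPKM. The means of Col5a2, Col4a1 and Col5a1 lay within 1 SD of Col4a1. That SD is the spread over all conditions and both genotypes and not the error of a mean, and the order of these chains was not tested. By mean CPM, 18 chains were at 100 or more in the TNF table, 6 at 10 to 100, 14 at 1 to 10 and 6 under 1. The last of these were Col13a1, Col20a1, Col4a3, Col6a4, Col6a5 and Col6a6.

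**Figure D1:**
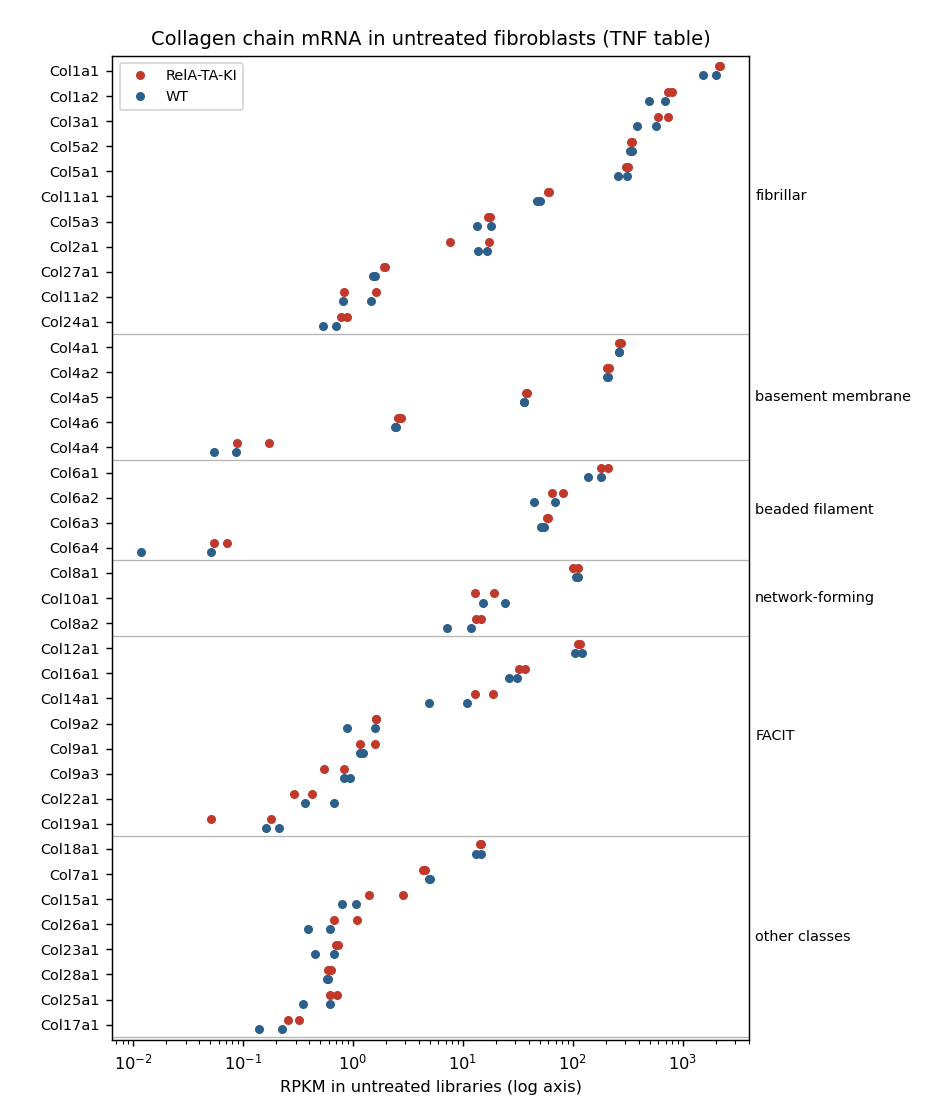
Level of the 39 collagen chains tested in the TNF table in the 4 untreated libraries, as RPKM on a log axis, grouped by collagen class, with a point for each library (RelA-TA-KI red, WT blue). The fibrillar chains span several orders of magnitude, with Col1a1 highest, and points of both genotypes lie close together for most chains.

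Across the 20 libraries of the TNF table, the chain whose log2 CPM followed Col1a1 most closely was Col1a2, with a Pearson correlation of 0.92. Col5a1 came next at 0.89, followed by Col16a1 at 0.87, Col25a1 at 0.85 and Col14a1 at 0.84. In the 18 libraries of the second table, the correlations of these chains with Col1a1 were 0.96 for Col1a2, 0.83 for Col5a1, 0.53 for Col16a1, -0.14 for Col25a1 and 0.70 for Col14a1. Libraries share their genotype, table and scaling, so these values describe likeness only. The ratio of Col1a1 to Col1a2 CPM stayed between 1.42 and 1.73 in RelA-TA-KI and between 1.39 and 1.75 in WT libraries of the TNF table. For Col4a1 to Col4a2, the ratio was 1.34 to 1.45 in RelA-TA-KI and 1.30 to 1.37 in WT libraries. These type IV genes lie head to head on chromosome 8, with annotated starts 21 bases apart and exons that overlap by 22 bases.

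All tests below are edgeR's quasi-likelihood test on the counts, with p-values adjusted by the Benjamini-Hochberg method over all genes tested (13843 in the TNF table, 12752 in the second) and called under 0.05. Of the 44 chains, 39 were tested in the TNF table. Those not tested were Col13a1, Col20a1, Col4a3, Col6a5 and Col6a6. Col6a4 passed the low-count filter only through WT TNF 8 h, the one group where it reached 10 counts.

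In untreated cells no chain was called between RelA-TA-KI and WT fibroblasts when replicates were treated as unpaired. Of all genes, 0.00722% were called, 0% higher and 0.00722% lower in RelA-TA-KI. At an unadjusted p under 0.05, 1 chain differed, and DESeq2 also called 0, while chains were called without the filter on low counts. The log2 difference, RelA-TA-KI over WT, was above 0 for 31 of the 39 chains, with a median of 0.20 beside 0.00 over all genes. For the most abundant chains the intervals were wide. Col1a1 differed by 0.27 (95% interval -0.14 to 0.69, adjusted p = 0.62), Col1a2 by 0.36 (95% interval -0.13 to 0.84, adjusted p = 0.59) and Col3a1 by 0.48 (95% interval -0.22 to 1.17, adjusted p = 0.61) on the log2 scale, and these intervals include 0. With the replicate number as a block within genotype, 10 chains were higher and 1 lower in RelA-TA-KI, against 9.54% of all genes. Those higher were Col3a1, Col1a2, Col1a1, Col6a1, Col6a2, Col8a2, Col11a1, Col14a1, Col16a1 and Col26a1, and Col10a1 was lower. In that fit the adjusted p was 0.0037 for Col1a1, 0.00029 for Col1a2 and 0.00023 for Col3a1. By its construction, the block takes the shift between replicate 1 and replicate 2 of a genotype out of the error, so these p-values do not hold that spread.

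In RelA-TA-KI cells Col4a1, Col4a2 and Col7a1 were higher at every time from 0.5 h, and the list lengthened at 8 h. At 0.5 h and at 1 h these 3 chains were called and none was lower, against 1.07% of all genes at 0.5 h (0.831% higher, 0.238% lower) and 3.28% at 1 h (2% higher, 1.28% lower). The count at 0.5 h was 1 without RelA-TA-KI TNF 0.5 h replicate 1 and 0 without each of the other 3 libraries, and that at 1 h was 1 without RelA-TA-KI TNF 1 h replicate 1, 2 without replicate 2 and 0 without either untreated library. At 3 h the same 3 chains were higher and 4 were lower (Col6a4, Col9a1, Col26a1 and Col8a2), 7 of 39, against 19% of all genes (10.9% higher, 8.08% lower). That count was 3 without RelA-TA-KI TNF 3 h replicate 1 and 4 without untreated replicate 2. At 8 h 10 chains were higher and 7 lower, 17 of 39, against 42.1% of all genes (21.6% higher, 20.5% lower), a share of chains near that of all genes. Without RelA-TA-KI TNF 8 h replicate 2, 8 chains were called, and likewise 8 without untreated RelA-TA-KI replicate 2. The 10 were Col2a1, Col11a2, Col9a1, Col9a3, Col9a2, Col5a3, Col18a1, Col7a1, Col4a1 and Col4a2, and the 7 were Col8a2, Col26a1, Col25a1, Col28a1, Col11a1, Col8a1 and Col5a2. The median log2 fold change at 8 h was 0.11 over the chains and -0.02 over all genes.

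In WT cells no collagen chain was called before 3 h of TNF when replicates were treated as unpaired. After 0.5 h and after 1 h no chain was called in that fit, 3 chains had an unadjusted p under 0.05 at each time, and DESeq2 called 0. With the replicate number as a block within genotype, 4 chains were called at 0.5 h and 4 at 1 h. Chains were also called at both times without the filter on low counts. Of all genes, 1.04% were called at 0.5 h (0.91% higher, 0.13% lower) and 3.81% at 1 h (2.57% higher, 1.24% lower). At 3 h Col27a1, Col5a3 and Col7a1 were higher and none was lower, 3 of 39 chains, against 15.7% of all genes (9.32% higher, 6.36% lower). At 8 h 4 chains were higher (Col6a4, Col5a3, Col23a1 and Col18a1) and 4 were lower (Col8a2, Col8a1, Col11a1 and Col4a5), 8 of 39, against 20.8% of all genes (12% higher, 8.8% lower). The call of Col4a5, at -0.17 (SE 0.06, adjusted p = 0.047), was lost without each of 4 libraries, with DESeq2 and without the filter on low counts. The median log2 fold change at 8 h was -0.11 over the chains and -0.01 over all genes.

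Libraries with the same replicate number moved together within each genotype, and with that number as a replicate block within genotype more chains were called. In RelA-TA-KI cells 3 were then higher and 10 lower at 0.5 h, 3 and 6 at 1 h, 3 and 16 at 3 h, and 12 and 13 at 8 h, with 14.8%, 15.9%, 35.3% and 53.3% of all genes called. Added at 8 h were Col12a1 and Col4a6, higher, and Col1a1, Col1a2, Col3a1, Col10a1, Col14a1 and Col16a1, lower. In WT cells 0 were higher and 4 lower at 0.5 h, 1 and 3 at 1 h, 6 and 4 at 3 h, and 6 and 9 at 8 h, while the share of all genes called was 4.36%, 10.1%, 27.8% and 32.8% at these times. Added at 8 h were Col6a1 and Col7a1, higher, and Col1a1, Col4a6, Col10a1, Col25a1 and Col26a1, lower. All 61 calls of single chains in the TNF table held under this block.

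Between genotypes after TNF, at 3 h 1 chain was higher in RelA-TA-KI (Col4a1) and 1 lower (Col27a1), against 3.19% of all genes (0.795% higher, 2.4% lower). Col4a1 was lost without either RelA-TA-KI library or WT replicate 2 at 3 h. At 8 h 10 chains were higher in RelA-TA-KI and 3 lower, 13 of 39, against 15.9% of all genes (7.75% higher, 8.11% lower). Of the 5 type IV chains tested, 4 were higher in RelA-TA-KI at 8 h (Col4a1, Col4a2, Col4a5 and Col4a6). The others that were higher were Col2a1, Col11a1, Col11a2, Col9a1, Col9a2 and Col9a3, fibre components of cartilage, and those that were lower were Col5a3, Col6a4 and Col23a1. Without RelA-TA-KI TNF 8 h replicate 2, 5 chains were called (4 higher, 1 lower), and likewise 5 without WT TNF 8 h replicate 2. Col4a2 was lost without each of the 4 libraries, Col11a1 without each but RelA-TA-KI TNF 8 h replicate 2, and Col23a1 without WT TNF 8 h replicate 2. The difference between the responses of the genotypes, tested directly, was called for 1 chain at 3 h, Col27a1, against 0.932% of all genes (0.202% higher, 0.73% lower). At 8 h it was called for 4 chains, above 0 (RelA-TA-KI minus WT) for Col4a1 and Col4a5 and below 0 for Col6a4 and Col23a1, against 6.87% of all genes (3.45% higher, 3.42% lower). With the replicate block within genotype, the genotype difference was called for 9 chains higher and 4 lower at 3 h (10% of all genes). At 8 h it was called for 18 higher and 6 lower (29.2%). The type I and III chains were among those added as higher at both times. As in untreated cells, these genotype p-values do not hold the spread between replicate 1 and replicate 2 of a genotype. In the same fit the difference of responses was above 0 for 2 chains and below 0 for 7 at 3 h (7.48% of all genes called). At 8 h these counts were 8 and 6 (21.2%). Those added at 8 h were Col2a1, Col11a2, Col9a3, Col4a2, Col4a6 and Col5a1 above 0, and Col5a3, Col8a2, Col5a2 and Col6a1 below 0. Leaving out any one of RelA-TA-KI TNF 8 h replicate 1 or 2, RelA-TA-KI untreated replicate 1 or 2, or WT TNF 8 h replicate 2 left none of these 4 differences of response at 8 h called. Col23a1 was the one kept without WT TNF 8 h replicate 1 or WT untreated replicate 2, and Col6a4 the one kept without WT untreated replicate 1.

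**Figure D2:**
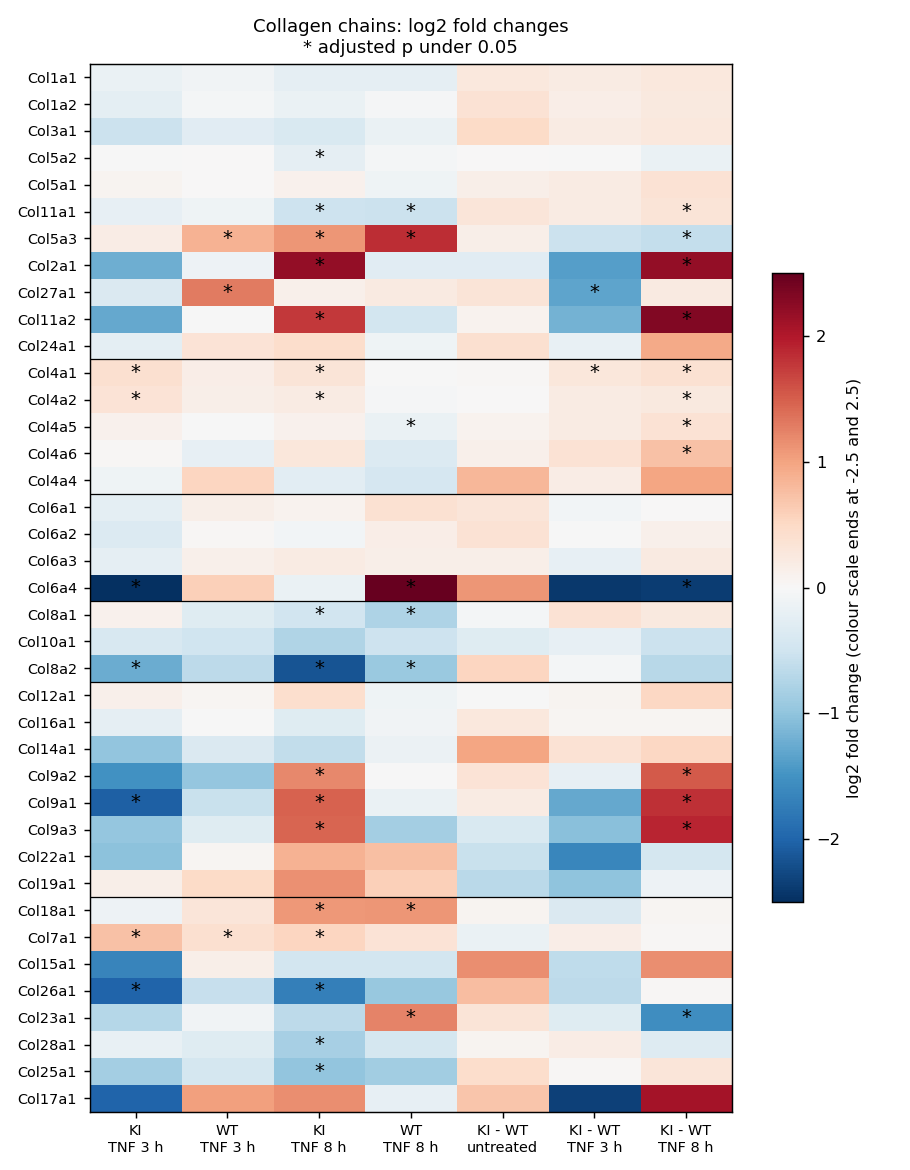
Log2 fold changes of the 39 tested collagen chains (rows, by class) for TNF against untreated at 3 and 8 h in RelA-TA-KI (KI) and WT cells, and for RelA-TA-KI against WT untreated and at 3 and 8 h (columns). Red is higher and blue lower, the colour scale ends at -2.5 and 2.5, and a star marks an adjusted p under 0.05. The column for untreated cells holds 0 stars and that for the genotypes at TNF 8 h holds 13.

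Col27a1 was the chain whose TNF response was called as different between genotypes at 3 h. It encodes a fibrillar collagen described mainly in developing cartilage. In RelA-TA-KI cells it had 18.6 and 20.6 CPM at TNF 3 h, against 24.8 and 25.7 CPM untreated. WT cells had 45.9 and 52.4 CPM at TNF 3 h, against 19.7 and 20.5 CPM untreated. Both RelA-TA-KI libraries at 3 h lay below their untreated ones, while both WT libraries at 3 h were more than 2-fold above theirs. The RelA-TA-KI response was -0.36 (SE 0.18, adjusted p = 0.16) and the WT response 1.29 (SE 0.17, adjusted p = 0.00014), with log2 fold changes given here and below as the value with its SE. The difference of the responses was -1.66 (95% interval -2.19 to -1.13, adjusted p = 0.0039), and it was called without any 1 of the 8 libraries of the comparison (-1.76 to -1.56). By 8 h the level was 26.9 and 28.6 CPM in RelA-TA-KI and 25.5 and 21.7 CPM in WT cells, and the response was called in neither.

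The 250 bases before the RefSeq start of Col27a1 hold 1 match to the NF-kB consensus, a motif of 10 bases searched on both strands. That start is at base 63215412, while the gene as counted starts at base 63214004, so the window lies inside the counted gene. The window is shown because Col27a1 was called in the difference of responses at 3 h, and because, of the 3 windows printed here, it is the one that holds a match. It is taken from RefSeq on build GRCm38.p6, chr4:63215162-63215411, plus strand, 5′ to 3′, and the match at bases -183 to -174 is in capitals.

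Col27a1: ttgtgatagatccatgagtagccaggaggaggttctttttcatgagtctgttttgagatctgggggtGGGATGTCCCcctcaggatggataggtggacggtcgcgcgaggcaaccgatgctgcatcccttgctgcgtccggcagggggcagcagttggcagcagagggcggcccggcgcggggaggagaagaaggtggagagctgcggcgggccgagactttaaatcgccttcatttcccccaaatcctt

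Among 38 such windows of 35 collagen chains, 6 held a match to the NF-kB consensus (15.8%), beside 7.25% of the 32851 windows of all genes. The others belonged to Col4a2, Col6a2, Col6a4, Col9a1 and Col9a2. The Col9a1 window, from base 24194953, also lies inside the gene as counted, which starts at base 24177610. The matched bases, each named with its place relative to the RefSeq start, were as follows, with Col4a2 matching on the opposite strand.

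Col27a1, -183 to -174: GGGATGTCCC
Col4a2, -40 to -31: GGAGCTCCCC
Col6a2, -81 to -72: GGGGGGCTCC
Col6a4, -67 to -58: GGGGATTCCC
Col9a1, -198 to -189: GGGGGTCTCC
Col9a2, -90 to -81: GGGACTTCCC

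Of these chains, Col27a1 rose in WT cells with TNF at 3 h. Col4a2, Col9a1 and Col9a2 were called in the response of RelA-TA-KI cells and not in that of WT cells, with Col4a2 higher. For these chains the difference of responses was not called with replicates unpaired. Col6a4, tested only because of WT TNF 8 h, was called higher in WT cells at 8 h and lower in RelA-TA-KI cells at 3 h. Col6a2 was called in the response of neither genotype. The AP-1 motif TGANTCA was found in 1 collagen window, that of Col6a1, 2.63% beside 6.75% of all windows. The Sp1-type box GGGCGG was found in 22 (57.9% beside 32.7%), CCAAT in 13 (34.2% beside 33.8%) and TATAAA in 5 (13.2% beside 12.4%), all on either strand. A match is a description of the letters and not a binding site.

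Col5a3 had the largest called rise in WT cells at TNF 8 h among the chains other than Col6a4. It encodes an alternative chain of type V collagen with a narrower tissue range than Col5a1 and Col5a2. In RelA-TA-KI cells it had 116 and 121 CPM untreated, 101 and 112 at 0.5 h, 108 and 106 at 1 h, 128 and 142 at 3 h and 260.4 and 246 at 8 h. In WT cells it had 90.7 and 124 CPM untreated, 88.9 and 114 at 0.5 h, 91.7 and 115 at 1 h, 161 and 229.6 at 3 h and 359 and 411 at 8 h. Both genotypes stood above their untreated libraries at 8 h, with the 2 WT libraries higher than the 2 RelA-TA-KI ones. The log2 fold change at 8 h was 1.10 (SE 0.17, adjusted p = 0.00017) in RelA-TA-KI and 1.84 (SE 0.17, adjusted p = 4.2e-06) in WT cells, and these calls were kept without any 1 of 4 libraries. At 3 h the WT response was 0.87 (SE 0.17, adjusted p = 0.0033), a call that was lost without WT TNF 3 h replicate 2 (0.59). Between genotypes at 8 h the difference was -0.60 (SE 0.17, adjusted p = 0.025), lost without RelA-TA-KI TNF 8 h replicate 1 or 2 or WT TNF 8 h replicate 2, and the difference of responses was -0.74 (95% interval -1.26 to -0.23, adjusted p = 0.078), with an adjusted p of 3.4e-05 with the replicate block within genotype. Its promoter window, chr9:20815068-20815317 on the minus strand of GRCm38.p6, held no match to the NF-kB consensus or AP-1, and is shown with its CCAAT motif at -122 to -118 and 2 boxes of GGGCGG read on the opposite strand at -63 to -58 and -41 to -36, all in lower case.

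Col5a3: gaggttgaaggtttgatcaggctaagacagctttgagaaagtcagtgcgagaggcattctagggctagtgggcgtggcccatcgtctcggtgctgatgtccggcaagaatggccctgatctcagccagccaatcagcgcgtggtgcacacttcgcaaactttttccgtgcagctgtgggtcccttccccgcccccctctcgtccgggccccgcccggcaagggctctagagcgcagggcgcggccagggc

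The other rising fibrillar, multiplexin and transmembrane chains followed different time courses. Col18a1, a multiplexin whose cut end is endostatin, had 189 and 241 CPM at TNF 8 h against 103 and 101 CPM untreated in RelA-TA-KI cells. WT cells had 185 and 234 CPM at TNF 8 h against 91.7 and 103 CPM untreated. The groups did not overlap in either genotype, and the responses were 1.08 (SE 0.15, adjusted p = 8.3e-05) in RelA-TA-KI and 1.10 (SE 0.15, adjusted p = 0.00015) in WT cells, a difference of -0.02 (95% interval -0.49 to 0.44, adjusted p = 0.97). Col23a1, a transmembrane collagen, had 2.39 and 2.81 CPM at TNF 8 h against 4.05 and 4.17 CPM untreated in RelA-TA-KI cells. In WT cells Col23a1 had 6.79 and 8.67 CPM at TNF 8 h against 2.61 and 3.83 CPM untreated. It was thus lower after TNF in both RelA-TA-KI libraries and higher after TNF in both WT libraries. The RelA-TA-KI response was -0.65 (SE 0.35, adjusted p = 0.15), the WT response 1.23 (SE 0.32, adjusted p = 0.014) and the difference of responses -1.89 (95% interval -2.91 to -0.87, adjusted p = 0.03). The WT call was lost without WT TNF 8 h replicate 2 or WT untreated replicate 1, and the difference of responses was kept without WT TNF 8 h replicate 1 or WT untreated replicate 2 and lost without each of the other 6, with values of -2.22 to -1.66. The window before its start, chr11:51289670-51289919 on the plus strand of GRCm38.p6, held none of the NF-kB, AP-1, CCAAT or TATAAA motifs and is shown beside those of Col27a1 and Col5a3.

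Col23a1: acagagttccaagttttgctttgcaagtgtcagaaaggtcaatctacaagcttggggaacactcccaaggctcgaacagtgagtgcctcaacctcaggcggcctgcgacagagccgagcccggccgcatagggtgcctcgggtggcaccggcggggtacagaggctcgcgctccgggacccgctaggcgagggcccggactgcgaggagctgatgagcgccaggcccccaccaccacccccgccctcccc

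Col6a4, a chain of type VI collagen, was close to the limit of detection. It had 4 counts in each RelA-TA-KI library at TNF 8 h and 0 to 5 counts in the other RelA-TA-KI libraries, against 21 and 19 counts at WT TNF 8 h and 3 and 1 counts in untreated WT libraries. It was tested only because of the WT 8 h group, so its difference there is a description. Its call as lower in RelA-TA-KI cells at 3 h comes from libraries with at most 5 counts.

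**Figure D3:**
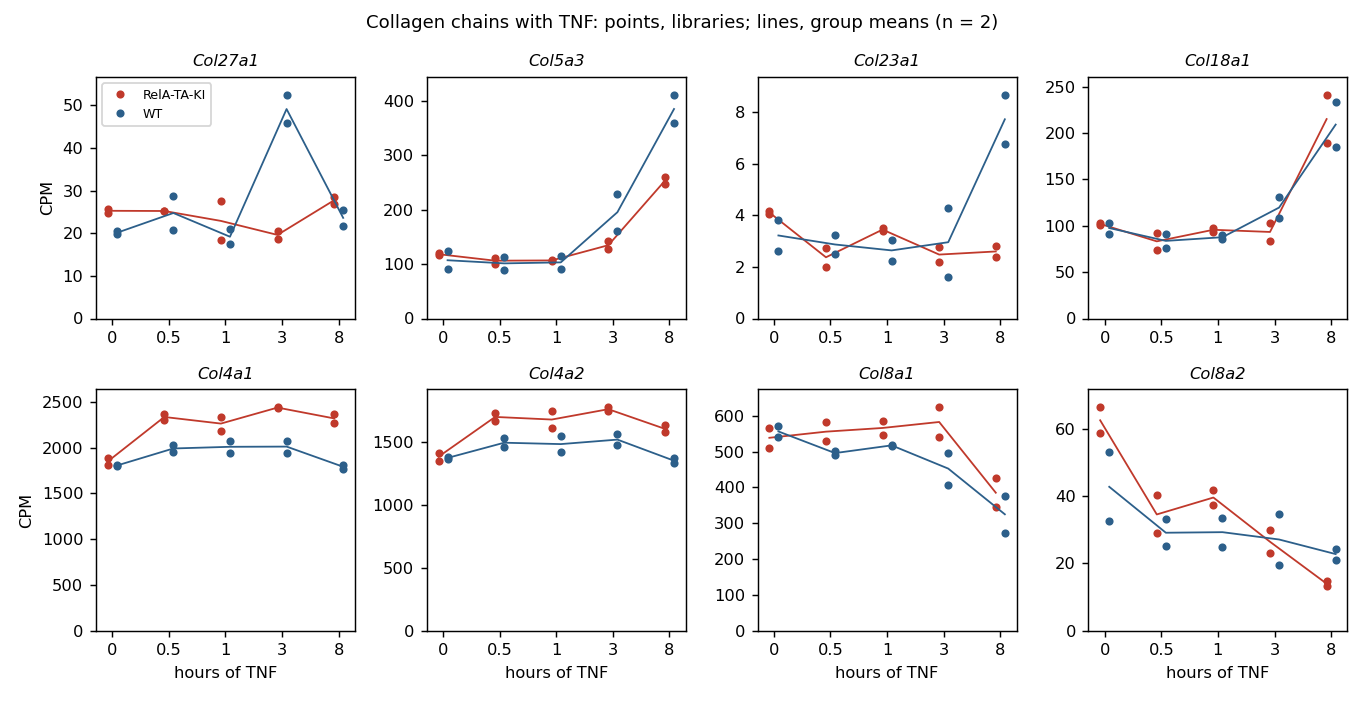
CPM of 8 collagen chains over hours of TNF (0 is untreated), with a point for each library and a line through the group means (n = 2), RelA-TA-KI red and WT blue. Col27a1 peaks in WT cells at 3 h, Col5a3, Col18a1 and in WT cells Col23a1 are highest at 8 h, Col4a1 and Col4a2 lie higher in RelA-TA-KI after TNF, and Col8a1 and Col8a2 are lowest at 8 h.

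Basement membrane chains changed by small amounts, with small errors. In RelA-TA-KI cells Col4a1 had 1888 and 1809 CPM untreated, 2304 and 2366 at 0.5 h, 2339.5 and 2186 at 1 h, 2434 and 2441 at 3 h and 2372 and 2266 at 8 h. In WT cells it had 1812 and 1797 CPM untreated, 1958 and 2024 at 0.5 h, 1945 and 2073 at 1 h, 2077 and 1946 at 3 h and 1769 and 1814 at 8 h. Every treated RelA-TA-KI library was above every WT library of the TNF table, while the untreated libraries of both genotypes overlapped. Its RelA-TA-KI response was 0.34 (SE 0.06, adjusted p = 0.014) at 0.5 h. At 1 h it was 0.29 (SE 0.06, adjusted p = 0.017), and at 3 h 0.40 (SE 0.06, adjusted p = 0.00072). By 8 h it stood at 0.33 (SE 0.06, adjusted p = 0.00073). In WT cells it was 0.14 (SE 0.06, adjusted p = 0.52), 0.16 (SE 0.06, adjusted p = 0.24), 0.16 (SE 0.06, adjusted p = 0.1) and -0.01 (SE 0.06, adjusted p = 0.93) at these times. The calls at 3 and 8 h held without any 1 library, that at 0.5 h was lost without each of the 4, and that at 1 h was kept without RelA-TA-KI TNF 1 h replicate 2 and lost without each of the other 3. The difference of responses at 8 h was 0.34 (95% interval 0.15 to 0.52, adjusted p = 0.032) and was lost without each of the 8 libraries, at values of 0.30 to 0.38.

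Col4a2 moved with Col4a1. It had 1743 and 1773 CPM at TNF 3 h and 1631 and 1574 CPM at 8 h, against 1413 and 1349 CPM untreated, in RelA-TA-KI cells. WT cells had 1559 and 1474 CPM at 3 h and 1332 and 1367 CPM at 8 h, against 1365 and 1379 CPM untreated. The RelA-TA-KI response was 0.35 (SE 0.06, adjusted p = 0.0024) at 3 h. By 8 h it stood at 0.21 (SE 0.06, adjusted p = 0.015), a call that was lost without RelA-TA-KI TNF 8 h replicate 1 or RelA-TA-KI untreated replicate 2. Col4a5 and Col4a6, the X-linked pair of the family, were higher in RelA-TA-KI at 8 h, with 281 and 274 against 211 and 219.8 CPM for Col4a5 and 26.3 and 24.9 against 16.0 and 14.7 CPM for Col4a6 in WT. The groups did not overlap, and the differences were 0.36 (SE 0.06, adjusted p = 0.00058) and 0.73 (SE 0.13, adjusted p = 0.0015), kept without any 1 of 4 libraries. Untreated, the differences were 0.09 (SE 0.06, adjusted p = 0.6) and 0.12 (SE 0.13, adjusted p = 0.73). Xist and Ddx3y separated WT replicate 2 from all other replicate sets. The part of sex in the differences of these X-linked chains was not tested. Col4a4 had at most 16 counts in any library of the TNF table and was called in no comparison.

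Col7a1, the chain of the fibrils that anchor skin to its basement membrane, rose early in RelA-TA-KI cells. It had 44.2 and 46.8 CPM untreated, 61.5 and 79.6 at 0.5 h, 63.5 and 75.0 at 1 h, 74.6 and 76.3 at 3 h and 64.2 and 67.7 at 8 h in RelA-TA-KI cells. In WT cells it had 50.2 and 51.8 CPM untreated, 59.0 and 66.6 at 0.5 h, 55.5 and 64.3 at 1 h, 64.3 and 70.2 at 3 h and 67.4 and 61.6 at 8 h. Treated libraries were above untreated ones at each time in both genotypes. The RelA-TA-KI responses were 0.63 (SE 0.12, adjusted p = 0.017), 0.60 (SE 0.12, adjusted p = 0.012), 0.73 (SE 0.12, adjusted p = 0.001) and 0.53 (SE 0.12, adjusted p = 0.0026) in order of time, and the WT responses 0.30 (SE 0.12, adjusted p = 0.45), 0.23 (SE 0.12, adjusted p = 0.4), 0.40 (SE 0.12, adjusted p = 0.035) and 0.34 (SE 0.12, adjusted p = 0.06). The difference of responses was 0.33 (95% interval -0.03 to 0.69, adjusted p = 0.53) at 3 h and 0.20 (95% interval -0.16 to 0.56, adjusted p = 0.53) at 8 h. The RelA-TA-KI calls at 3 and 8 h held without any 1 of 4 libraries, while those at 0.5 and 1 h were kept without replicate 1 of the treated libraries and lost without each of the other 3, and the WT call at 3 h was lost without each of 4.

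Both chains of a network-forming collagen fell. Col8a2 and Col8a1 encode type VIII collagen, found under endothelia and in vessel walls. Col8a2 had 58.6 and 66.3 CPM untreated, 28.9 and 40.1 at 0.5 h, 37.4 and 41.7 at 1 h, 23.0 and 29.9 at 3 h and 13.3 and 14.6 at 8 h in RelA-TA-KI cells. WT cells had 32.5 and 52.9 CPM untreated, 25.1 and 33.1 at 0.5 h, 24.9 and 33.6 at 1 h, 19.5 and 34.7 at 3 h and 21.1 and 24.4 at 8 h. The RelA-TA-KI libraries at 8 h were the lowest of the table, and in WT cells both libraries at 8 h lay below both untreated ones. The response at 8 h was -2.16 (SE 0.28, adjusted p = 3.8e-05) in RelA-TA-KI and -0.92 (SE 0.27, adjusted p = 0.027) in WT cells, and the difference of responses was -1.24 (95% interval -2.08 to -0.39, adjusted p = 0.074). The RelA-TA-KI call was kept without any 1 of 4 libraries, and the WT call was kept without untreated replicate 1 and lost without each of the other 3. Col8a1 had 426 and 345 CPM at 8 h against 567 and 510.4 CPM untreated in RelA-TA-KI cells, and 376 and 274 against 571 and 542 CPM in WT cells. Both genotypes were lower at 8 h, with responses of -0.48 (SE 0.14, adjusted p = 0.012) and -0.77 (SE 0.14, adjusted p = 0.0011), the first of which was lost without RelA-TA-KI TNF 8 h replicate 2 or RelA-TA-KI untreated replicate 1. Col10a1, the network chain of hypertrophic cartilage, was called in no comparison of the TNF table without the block. With the block within genotype it was lower at each time in both genotypes, at -0.76 (adjusted p = 2.9e-06) in RelA-TA-KI and -0.52 (adjusted p = 0.00013) in WT cells at 8 h. In the same fit the difference of responses of Col8a2 at 8 h had an adjusted p of 5.1e-05.

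Col11a1, a fibrillar chain that joins types V and XI, fell in both genotypes. It had 556 and 520.3 CPM at TNF 8 h against 769 and 764 CPM untreated in RelA-TA-KI cells. In WT cells it had 432 and 425 CPM at TNF 8 h against 597 and 647 CPM untreated. The groups did not overlap, the responses were -0.51 (SE 0.08, adjusted p = 0.00014) and -0.54 (SE 0.08, adjusted p = 0.0002), and both calls held without any 1 of 4 libraries. The other chains that fell in RelA-TA-KI cells at 8 h were Col26a1 at -1.71 (SE 0.46, adjusted p = 0.0088), Col28a1 at -0.84 (SE 0.27, adjusted p = 0.031) and Col5a2 at -0.22 (SE 0.07, adjusted p = 0.015). The transmembrane chain Col25a1 fell to 3.90 and 4.73 CPM at TNF 8 h, against 7.98 and 9.27 CPM untreated (adjusted p = 0.031). Each was called in RelA-TA-KI but not in WT cells, and the difference of responses was not called for any of these 4, with values of -0.75 for Col26a1, -0.39 for Col28a1, -0.18 for Col5a2 and -0.13 for Col25a1. With the replicate block within genotype it was called for Col5a2 (adjusted p = 0.023), and the WT responses of Col25a1 and Col26a1 were called too. Col25a1 and Col28a1 were lost without each of 4 libraries, Col26a1 without RelA-TA-KI TNF 8 h replicate 1 or untreated replicate 2, and Col5a2 without RelA-TA-KI TNF 8 h replicate 2 or untreated replicate 1.

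Among the main fibrillar and beaded filament chains, Col1a1, Col1a2, Col3a1, Col6a1, Col6a2 and Col6a3 passed the test at no time of TNF in either genotype with replicates unpaired. Col1a1 had 11734 and 12464 CPM at TNF 8 h against 13961 and 14323 CPM untreated in RelA-TA-KI cells, and 8491 and 11556 against 10125 and 13304 CPM in WT cells. Its responses were -0.23 (95% interval -0.64 to 0.19, adjusted p = 0.37) and -0.22 (95% interval -0.64 to 0.19, adjusted p = 0.47). Col1a2 gave -0.16 (95% interval -0.65 to 0.32, adjusted p = 0.59) in RelA-TA-KI and -0.04 (95% interval -0.52 to 0.45, adjusted p = 0.94) in WT cells, and Col3a1 -0.39 (95% interval -1.08 to 0.31, adjusted p = 0.36) and -0.17 (95% interval -0.86 to 0.53, adjusted p = 0.78). For Col6a1, Col6a2 and Col6a3 the WT response at 8 h was 0.38, 0.16 and 0.14, with adjusted p of 0.27, 0.76 and 0.64. The intervals of the type I and III chains include no change. With the replicate block within genotype, the responses of these chains at 8 h were called in RelA-TA-KI cells, with adjusted p of 0.003 for Col1a1, 0.02 for Col1a2 and 0.00016 for Col3a1, all lower. In WT cells Col1a1 was called lower (adjusted p = 0.0048) and Col6a1 higher (adjusted p = 3.3e-05) at 8 h in that fit.

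In both RelA-TA-KI libraries at TNF 8 h, 5 chains of cartilage collagens were high, and they were highest in 1 of these libraries. Col10a1 and Col11a1, also chains of cartilage, were not among these 5. These are Col2a1, the chain of type II collagen, Col9a1, Col9a2 and Col9a3, which form the FACIT type IX on type II fibres, and Col11a2, a chain of type XI. Col2a1 had 199 and 488 CPM at RelA-TA-KI TNF 8 h against 105 and 46.1 CPM in untreated RelA-TA-KI cells. WT cells had 102 and 47.0 CPM at TNF 8 h against 99.4 and 83.0 CPM untreated. Replicate 2 of the RelA-TA-KI group was the highest of the 20 libraries, and the next were WT TNF 0.5 h replicate 2 at 234 CPM and RelA-TA-KI TNF 8 h replicate 1. The RelA-TA-KI response at 8 h was 2.19 (SE 0.59, adjusted p = 0.0081) for Col2a1, 1.77 (SE 0.53, adjusted p = 0.015) for Col11a2 and 1.47 (SE 0.41, adjusted p = 0.0099) for Col9a1. It was 1.20 (SE 0.46, adjusted p = 0.049) for Col9a2 and 1.45 (SE 0.56, adjusted p = 0.05) for Col9a3, the last just under the threshold before rounding. At 8 h the differences from WT were 2.21, 2.32, 1.83, 1.54 and 1.91 in the same order of genes, with adjusted p of 0.021, 0.012, 0.0096, 0.04 and 0.041. The difference of responses was not called for the 5 chains, with adjusted p of 0.087, 0.11, 0.13, 0.32 and 0.12. With the replicate block within genotype it was called for Col2a1, Col11a2 and Col9a3, with adjusted p of 0.014, 0.03 and 0.049.

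The calls of all 5 cartilage chains, both in the RelA-TA-KI response and between genotypes, were lost without RelA-TA-KI TNF 8 h replicate 2. The calls in the response were also lost without untreated RelA-TA-KI replicate 2, and those between genotypes without WT TNF 8 h replicate 2. Col9a2 and Col9a3 were lost too without untreated RelA-TA-KI replicate 1 in the response and without WT TNF 8 h replicate 1 between genotypes. Without RelA-TA-KI TNF 8 h replicate 2, Col2a1 was at 1.41 (adjusted p = 0.11) in the response and 1.42 (adjusted p = 0.22) between genotypes, and Col9a1 at 0.77 (adjusted p = 0.2) and 1.13 (adjusted p = 0.16). The 6 cartilage markers Sox9, Acan, Matn1, Matn3, Cnmd and Hapln1 were measured beside them. Their summed CPM was 98.1 and 134 in RelA-TA-KI TNF 8 h libraries, 84.5 and 64.6 in untreated RelA-TA-KI, 61.5 and 45.5 in WT TNF 8 h and 78.2 and 85.3 in untreated WT libraries. The summed CPM of the 5 chains in these groups was 242 and 578, 132 and 64.8, 124 and 59.2, and 117 and 107. Of the 6 markers, 2 were higher in the RelA-TA-KI response (Matn1 and Acan), beside 42.1% of all genes called, and 4 between genotypes at 8 h, beside 15.9%. Matn1 was at 0 in 5 of the 20 libraries and Cnmd in 3. Matn1 had 2.01 and 6.76 CPM at RelA-TA-KI TNF 8 h, 4.87 CPM in WT TNF 0.5 h replicate 2 and at most 0.706 CPM elsewhere. It thus passed the low-count filter only through RelA-TA-KI TNF 8 h, and a call of Matn1 in that group is a description. Over the 20 libraries the correlation of log2 CPM with the log2 marker sum was 0.82 for Col2a1, 0.75 for Col9a1 and 0.70 for Col9a2. It was 0.84 for Col9a3 and 0.82 for Col11a2. For Col10a1 and Col11a1, also chains of cartilage, it was -0.05 and 0.08, and for Col1a1 0.01. The summed CPM of 6 bone markers was 106 and 133 in RelA-TA-KI TNF 8 h libraries, the highest of the 20, against 90.9 and 37.1 in untreated RelA-TA-KI, 48.3 and 22.4 in WT TNF 8 h and 49.9 and 87.4 in untreated WT libraries, and none of the 4 tested was called in the RelA-TA-KI response or between genotypes at 8 h. The library with the highest chain sum also had the highest macrophage sum of the table. The part of cartilage or bone cells or of this library in the result was not tested.

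**Figure D4:**
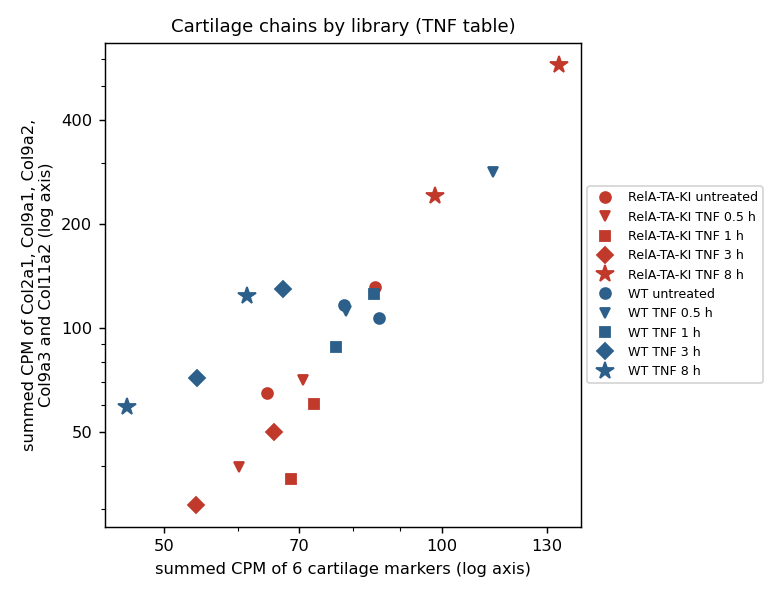
Summed CPM of the 5 cartilage chains (vertical, log axis) against the summed CPM of 6 cartilage markers (horizontal, log axis) in the 20 libraries of the TNF table, RelA-TA-KI red and WT blue, with a symbol for each time. The 2 RelA-TA-KI libraries at 8 h, with chain sums of 242 and 578, and WT TNF 0.5 h replicate 2, at 283, lie at the upper right.

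At 3 h, 1 of the 5 cartilage chains was lower in RelA-TA-KI cells. Col9a1 had 1.57 and 1.78 CPM at TNF 3 h against 7.98 and 5.91 CPM untreated, a response of -2.04 (SE 0.53, adjusted p = 0.017) that was kept without untreated replicate 2 and lost without each of the other 3 libraries. Col26a1 and Col8a2 also fell at 3 h, to 0.967 and 2.56 and to 23.0 and 29.9 CPM, with responses of -2.00 (SE 0.48, adjusted p = 0.011) and -1.24 (SE 0.26, adjusted p = 0.0058). Both calls were lost without RelA-TA-KI TNF 3 h replicate 1 or untreated replicate 2.

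In the second table, with LPS and Poly(I:C), each group is 1 library, so no difference between 2 groups has a replicate check. The model fitted a level for each condition and 1 genotype term, so the error behind a p-value is how far the 2 genotypes depart from a common pattern over conditions, not the spread between replicates. Of the 44 chains, 36 were tested, and those not tested were Col13a1, Col17a1, Col19a1, Col20a1, Col4a3, Col4a4, Col6a4 and Col6a5. For LPS at 3 h 9 chains were higher and none lower, against 46.1% of all genes (22.8% higher, 23.3% lower). At 8 h 11 were higher and 5 lower, 16 of 36, against 64.2% of all genes (30.9% higher, 33.2% lower). For Poly(I:C) at 3 h no chain was called, 4 had an unadjusted p under 0.05 and DESeq2 called 0, against 18.9% of all genes (11% higher, 7.87% lower). At 8 h 7 were higher and 3 lower, 10 of 36, against 51.3% of all genes (25.2% higher, 26.1% lower). In all 3 comparisons with calls the share of chains called was below that of all genes. Leaving out 1 library moved the LPS 3 h count to 8 without RelA-TA-KI LPS 3 h, 3 without untreated RelA-TA-KI, 0 without WT LPS 3 h and 2 without untreated WT. For Poly(I:C) at 8 h the count was 4 without RelA-TA-KI Poly(I:C) 8 h, 2 without untreated RelA-TA-KI, 12 without WT Poly(I:C) 8 h and 3 without untreated WT, and for LPS at 8 h it stayed at 13 or 14.

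Several chains that rose with TNF were also high after LPS. Col5a3 had 334 CPM in RelA-TA-KI and 295 CPM in WT cells at LPS 8 h, against 147 and 143 CPM untreated, a common response of 1.11 (SE 0.10, adjusted p = 2.7e-06). Col18a1 had 229.9 and 347 CPM at LPS 8 h against 111 and 144 CPM untreated, in RelA-TA-KI and WT cells in that order, a response of 1.17 (SE 0.18, adjusted p = 0.00016). Col23a1 had 12.7 and 17.1 CPM at LPS 8 h against 6.77 and 5.39 CPM untreated, a response of 1.29 (SE 0.19, adjusted p = 0.00011). Unlike with TNF, the RelA-TA-KI library of Col23a1 was higher after LPS than untreated, but the tables were scaled separately and no test compares them.

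Col28a1, a collagen with domains like those of von Willebrand factor, had the largest LPS response of the chains. It had 17.8 CPM in RelA-TA-KI and 18.8 CPM in WT cells at LPS 8 h and 19.8 and 8.28 CPM at Poly(I:C) 8 h, against 3.04 and 2.87 CPM untreated. All 4 libraries at 8 h were above all others of the table. The response was 2.63 (SE 0.34, adjusted p = 3.7e-05) to LPS and 2.20 (SE 0.34, adjusted p = 0.00029) to Poly(I:C), and both calls held without any 1 of 4 libraries. With TNF at 8 h it was -0.84 (SE 0.27, adjusted p = 0.031) in RelA-TA-KI and -0.45 (SE 0.26, adjusted p = 0.35) in WT cells, from 11 to 28 counts a library.

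Col4a1 had 1926 CPM in RelA-TA-KI and 1694 CPM in WT cells at LPS 8 h, against 1104 and 695 CPM untreated. At Poly(I:C) 8 h it had 1756 CPM in RelA-TA-KI and 914 CPM in WT cells. The RelA-TA-KI library was the higher one at each condition. The common response was 1.06 (SE 0.14, adjusted p = 4.9e-05) to LPS and 0.54 (SE 0.14, adjusted p = 0.0068) to Poly(I:C), the second of which was lost without RelA-TA-KI Poly(I:C) 8 h or untreated WT. For Col4a2 the LPS response was 0.61 (SE 0.13, adjusted p = 0.0011). The ratio of Col4a1 to Col4a2 was highest at LPS 8 h in both genotypes, 1.65 in RelA-TA-KI and 1.63 in WT, against medians of 1.25 and 1.22 over the 9 libraries of each.

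Among the main fibrillar chains, Col3a1 had 16596 CPM in RelA-TA-KI and 16227 CPM in WT cells at LPS 8 h, against 10371 and 10507 CPM untreated. Its response was 0.65 (SE 0.15, adjusted p = 0.0029), kept without any 1 of 4 libraries. Col5a2 followed with 0.38 (SE 0.10, adjusted p = 0.0043), also kept, and Col1a2 with 0.43 (SE 0.16, adjusted p = 0.036), lost without each of 4. Col1a1 was at 0.30 (95% interval -0.10 to 0.71, adjusted p = 0.17). Col24a1, a fibrillar chain of bone and cornea, rose to 30.3 and 27.4 CPM against 14.6 and 11.4 CPM untreated in RelA-TA-KI and WT cells, a response of 1.16 (SE 0.22, adjusted p = 0.0007), and Col11a2 gave 1.80 (SE 0.32, adjusted p = 0.0004). The 5 chains lower at LPS 8 h were Col25a1 at -1.58 (SE 0.37, adjusted p = 0.0026), Col8a2 at -0.90 (SE 0.13, adjusted p = 9.3e-05), Col27a1 at -0.81 (SE 0.32, adjusted p = 0.045), Col11a1 at -0.64 (SE 0.14, adjusted p = 0.0018) and Col26a1 at -0.58 (SE 0.22, adjusted p = 0.035). The call of Col27a1 was kept without untreated WT and that of Col26a1 without RelA-TA-KI LPS 8 h, and each was lost without any of the other 3 libraries.

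At LPS 3 h Col27a1 had 34.8 CPM in RelA-TA-KI and 99.9 CPM in WT cells, against 32.4 and 33.9 CPM untreated. At Poly(I:C) 3 h it had 37.4 CPM in RelA-TA-KI and 63.2 CPM in WT cells. The WT library was the higher one under both agents at 3 h, as with TNF. On the log2 scale the change from the untreated library was 0.10 in RelA-TA-KI and 1.55 in WT cells with LPS, and 0.21 and 0.89 with Poly(I:C), values without replicates. The common LPS response at 3 h was 0.94 (SE 0.30, adjusted p = 0.024) and was lost without WT LPS 3 h (0.21) or untreated WT. The other 8 chains called at LPS 3 h were Col11a2 at 1.29, Col9a3 at 1.27, Col24a1 at 0.68, Col18a1 at 0.67, Col5a3 at 0.42, Col5a2 at 0.36, Col4a5 at 0.30 and Col16a1 at 0.24, with adjusted p from 0.0048 to 0.046. At Poly(I:C) 8 h the called chains besides Col28a1 and Col4a1 were Col11a2 at 0.88, Col18a1 at 0.49, Col1a2 at 0.44, Col5a3 at 0.34 and Col5a2 at 0.30, which were higher, and Col6a6 at -2.12, Col26a1 at -0.61 and Col11a1 at -0.41, which were lower, with adjusted p from 0.014 to 0.049. Each of these 8 calls was lost without 2 or more of 4 libraries.

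**Figure D5:**
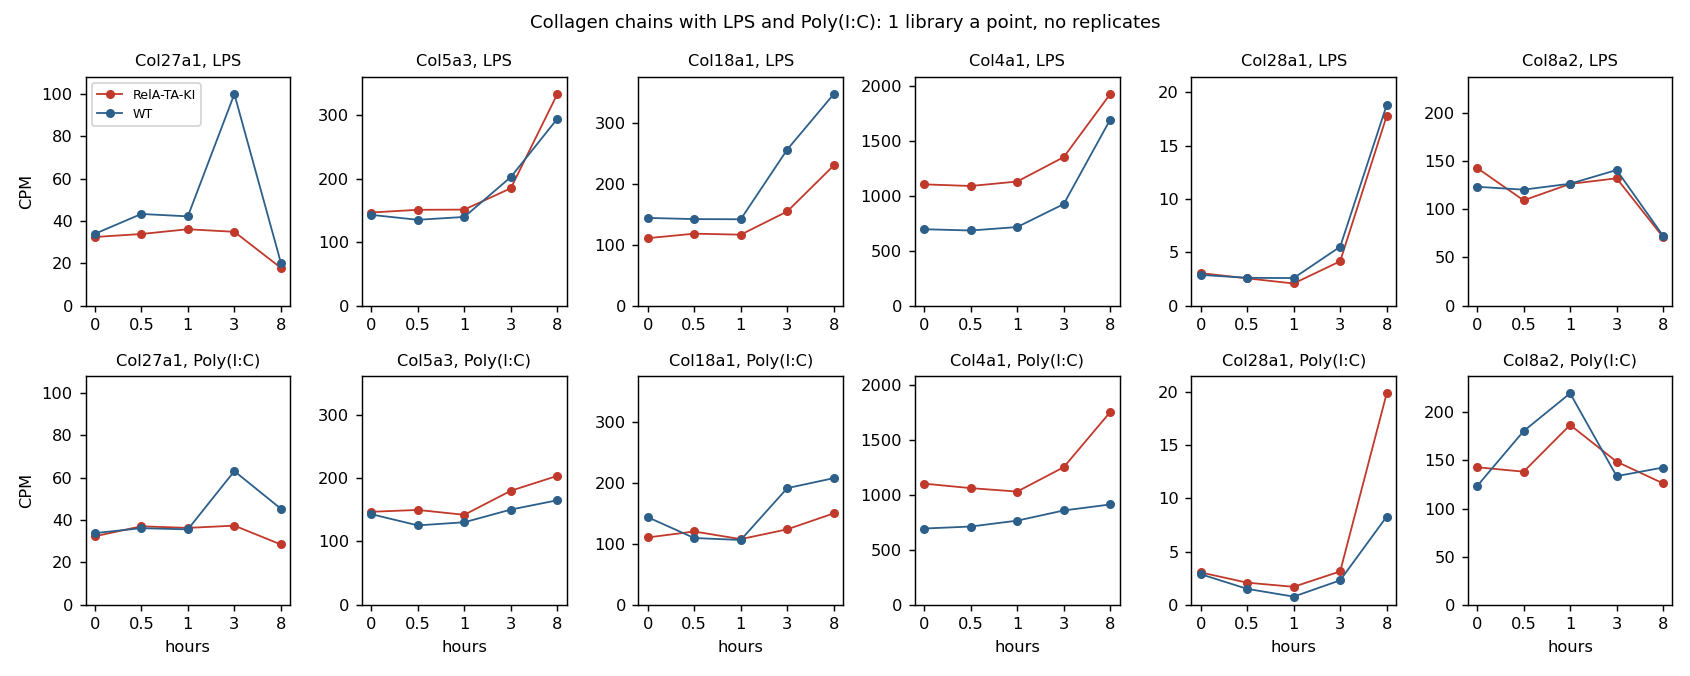
CPM of 6 collagen chains over hours of LPS (upper row) and Poly(I:C) (lower row), with 0 for the untreated library, RelA-TA-KI red and WT blue, and 1 library a point. Col27a1 peaks at 3 h in WT cells at 99.9 CPM with LPS and 63.2 CPM with Poly(I:C), Col28a1 is highest at 8 h in all 4 courses, and Col4a1 lies higher in RelA-TA-KI throughout.

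Between the genotypes over the 9 conditions of this table, 10 chains were higher in RelA-TA-KI and 6 lower, 16 of 36, against 15.9% of all genes (7.66% higher, 8.21% lower). Leaving out any 1 of the 18 libraries gave 16 or 17 calls. Col22a1, a FACIT chain found at tissue junctions such as that of muscle and tendon, had a median of 1.48 CPM in RelA-TA-KI (lowest 0.813, highest 1.76) and 8.80 CPM in WT libraries (5.36 to 13.2). The 9 RelA-TA-KI libraries were all below the 9 WT libraries, a difference of -2.78 (SE 0.11, adjusted p = 2.5e-08). Col26a1 had a median of 8.88 CPM in RelA-TA-KI (5.99 to 10.6) and 25.2 CPM in WT libraries (15.9 to 33.2), again without overlap, at -1.48 (SE 0.10, adjusted p = 2e-06). Col12a1, a FACIT chain on type I fibres, had a median of 1329.7 CPM in RelA-TA-KI (1102 to 1556) and 625 CPM in WT libraries (562 to 988), at 0.92 (SE 0.09, adjusted p = 5.6e-05). Also higher were Col7a1 at 1.08 (SE 0.15, adjusted p = 0.00055), Col8a1 at 0.71 (SE 0.08, adjusted p = 0.00016), Col15a1 at 0.64 (SE 0.15, adjusted p = 0.013), Col4a1 at 0.58 (SE 0.07, adjusted p = 0.00012), Col24a1 at 0.53 (SE 0.11, adjusted p = 0.0054) and Col4a2 at 0.52 (SE 0.06, adjusted p = 0.00013). The remaining higher chains were Col5a1 at 0.44 (SE 0.06, adjusted p = 0.00041), Col6a2 at 0.28 (SE 0.04, adjusted p = 0.00074) and Col4a5 at 0.22 (SE 0.04, adjusted p = 0.0022), and the remaining lower ones Col9a1 at -0.98 (SE 0.14, adjusted p = 0.00049), Col9a2 at -0.96 (SE 0.12, adjusted p = 0.00018), Col10a1 at -0.92 (SE 0.18, adjusted p = 0.0049) and Col18a1 at -0.36 (SE 0.09, adjusted p = 0.015). In untreated cells of the TNF table, by comparison, Col22a1 differed by -0.56 (95% interval -1.67 to 0.54, adjusted p = 0.7), Col26a1 by 0.77 (95% interval -0.14 to 1.68, adjusted p = 0.56) and Col12a1 by -0.01 (95% interval -0.39 to 0.38, adjusted p = 0.99). Xist and Ddx3y also separated the genotypes of the second table, and whether each genotype was 1 culture is not stated, so genotype, sex and culture cannot be told apart there. This touches the X-linked Col4a5 directly.

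The ratio of Col5a1 to Col5a2 differed between genotypes without overlap in the second table, 0.775 to 0.860 over the 9 RelA-TA-KI and 0.465 to 0.663 over the 9 WT libraries. In the TNF table the ratio was 0.781 to 1.12 in RelA-TA-KI and 0.614 to 0.850 in WT libraries, which overlapped. As a ratio of CPM it holds the lengths of both genes and is not a ratio of chains.

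Genes that process, bind or cut collagen were read from lists of the pathway. Among 30 tested biosynthesis and processing genes, 3 were higher and 8 lower in RelA-TA-KI cells at TNF 8 h, and 2 were higher and 2 lower in WT cells, beside 42.1% and 20.8% of all genes called. The list medians were -0.11 and -0.10. Adamts3, a procollagen N-proteinase, fell in both, with responses of -1.89 (SE 0.36, adjusted p = 0.0008) in RelA-TA-KI and -2.27 (SE 0.39, adjusted p = 0.00084) in WT cells, and Loxl2, which crosslinks type IV collagen, rose in RelA-TA-KI at 0.65 (SE 0.07, adjusted p = 4.8e-06). Adamts14, another N-proteinase, rose in WT cells at 1.18 (SE 0.16, adjusted p = 0.00011). The difference of responses at 8 h was called for Adamts14 and Loxl2 at -0.81 (SE 0.23, adjusted p = 0.048) and 0.55 (SE 0.10, adjusted p = 0.004). It was also called for Colgalt2, a collagen galactosyltransferase near the limit of detection, with 1.38 and 1.24 CPM in RelA-TA-KI TNF 8 h, 0 and 0.251 in WT TNF 8 h, 0.737 and 0.580 in untreated RelA-TA-KI and 1.16 and 0.807 in untreated WT libraries, so no fold is given. At LPS 8 h 13 of 29 such genes were higher and 1 lower, beside 64.2% of all genes called, led by Tll1 at 2.95 (SE 0.37, adjusted p = 3.1e-05), Loxl3 at 2.41 (SE 0.27, adjusted p = 1.2e-05) and Adamts14 at 1.63 (SE 0.19, adjusted p = 1.9e-05). The median of this list was 0.26 at LPS 8 h, beside -0.05 over all genes.

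Of 6 tested collagen-cleaving proteases, 2 were higher and 3 lower at TNF 8 h in RelA-TA-KI cells and 2 were higher and 1 lower in WT cells, beside 42.1% and 20.8% of all genes called. Mmp9, a gelatinase, was at 4.13 (SE 0.46, adjusted p = 8.6e-06) in RelA-TA-KI and 3.43 (SE 0.45, adjusted p = 8e-05) in WT cells, and Mmp13, a collagenase, at 2.17 (SE 0.34, adjusted p = 0.00017) and 2.91 (SE 0.34, adjusted p = 3.2e-05). Mmp2, the other gelatinase, was lower in RelA-TA-KI than in WT cells at 8 h, at -0.61 (SE 0.11, adjusted p = 0.0015). With LPS at 8 h 4 of 6 proteases were higher and 2 lower, beside 64.2% of all genes, with Mmp13 at 7.91 over both genotypes (SE 0.92, adjusted p = 1.9e-05). Mmp13 had 1069 CPM in RelA-TA-KI and 3830 CPM in WT cells at LPS 8 h, against 10.6 and 10.4 CPM untreated, each 1 library. Among 9 tested receptors, Itga2, the alpha subunit of a collagen-binding integrin, rose at 4.96 (SE 0.44, adjusted p = 1.1e-06) in RelA-TA-KI and 3.66 (SE 0.42, adjusted p = 2.5e-05) in WT cells at TNF 8 h, while Itga11 and Mrc2, an endocytic receptor, fell in both. Among 13 fibril partners, Ogn, a small leucine-rich proteoglycan, was lower at each time in both genotypes, at -1.57 (SE 0.09, adjusted p = 2.7e-08) in RelA-TA-KI and -1.03 (SE 0.09, adjusted p = 2.1e-06) in WT cells at 8 h, and Comp, a fibre-binding protein of cartilage and tendon, differed between genotypes by -2.43 (SE 0.09, adjusted p = 2.1e-08) in the second table. Of 9 TGF-beta ligands and targets, 3 were higher and 2 lower in RelA-TA-KI cells at TNF 8 h, with Tgfb3 at -1.66 (SE 0.18, adjusted p = 7.8e-06), and 1 was higher and 2 lower in WT cells, with Tgfb3 at -1.39 (SE 0.18, adjusted p = 7.4e-05), again beside 42.1% and 20.8% of all genes. Over the conditions of the second table, 5 of these 9 were higher in RelA-TA-KI, beside 15.9% of all genes called, led by Acta2 at 1.01 (SE 0.08, adjusted p = 1.2e-05). Untreated libraries of the TNF table did not show this. There Acta2 had 1831 and 1247 CPM in RelA-TA-KI against 2749 and 1936 CPM in WT, and Comp 11.3 and 11.4 against 9.57 and 12.6 CPM. In the second table genotype, sex and culture cannot be told apart for these genes either.

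The chains called in no comparison of either table without the block were Col1a1, Col4a4, Col6a1, Col6a3, Col14a1, Col17a1 and Col19a1 among those tested in at least 1 table, and Col13a1, Col20a1, Col4a3 and Col6a5 were tested in neither. Col14a1, a FACIT chain of type I fibres, had log2 responses at TNF 8 h of -0.62 (95% interval -1.78 to 0.54, adjusted p = 0.38) in RelA-TA-KI and -0.15 (95% interval -1.37 to 1.07, adjusted p = 0.89) in WT cells. With the replicate block within genotype, Col14a1 was lower at each time in RelA-TA-KI cells (adjusted p = 0.001 at 8 h), and Col1a1 and Col6a1 were also called in that fit.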

How the data were processed

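The deposited files hold counts of reads per gene, which the authors made from stranded poly(A) single-end libraries of 50 bases. The submitters' processing notes name cutadapt 1.9.1, STAR, featureCounts 1.4.6, DESeq2 and build mm10. The strand setting and annotation release are not given in the sources used here, so reads of overlapping or antisense genes may be shared. From the deposited counts, the quasi-likelihood test of edgeR 4.0.16 (R 4.3.3) was run with TMM scaling and filterByExpr (minimum count 10), and p-values were adjusted over all genes. The TNF table was fitted with 10 groups (10 residual degrees of freedom), and the LPS and Poly(I:C) table, with 1 library a group, with condition and genotype terms (8 degrees of freedom). The fits were tested on simulated data. Values are given for the 8 chains with the highest mean RPKM, for called chains (up to 12 a comparison by size of change) and for those with a called difference of responses, and for up to 3 called genes of each pathway list. The rule for members uses symbols alone, but the gene family and the gene lists were picked with earlier results of these data known. The main fits treated replicates as unpaired. Replicate numbers were taken to pair samples within a genotype only in an alternative fit, because deviations from group means correlated between groups. These correlations were 0.161 to 0.529 in WT and 0.161 to 0.370 in RelA-TA-KI cells, against 0.006 to 0.338 between genotypes. Alternatives were DESeq2 1.42.0, its size factors, no filter, replicate blocks and leaving out each library. Library totals limit precision: a chain with few counts has wide intervals, which cover counting error and the spread between samples.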

Additional observations from a re-analysis of the deposited data

Results flagged for a closer look

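For 4 chains the TNF response differed between RelA-TA-KI and WT cells in a direct test (edgeR's quasi-likelihood test, adjusted over all genes). For Col27a1 the difference of responses at 3 h, RelA-TA-KI minus WT, was -1.66 on the log2 scale (adjusted p = 0.0039), with both RelA-TA-KI libraries lower after TNF and both WT libraries higher. At 8 h it was 0.34 for Col4a1 (adjusted p = 0.032) and 0.28 for Col4a5 (adjusted p = 0.046), calls that were lost when any 1 of the 8 libraries was left out. For Col23a1 it was -1.89 (adjusted p = 0.03), from 2.39 to 8.67 CPM. The Col23a1 call was kept without WT TNF 8 h replicate 1 or WT untreated replicate 2, and lost without each of the other libraries. Col6a4 also passed that test at 8 h, at -3.49 (adjusted p = 0.024), but it was tested only because of WT TNF 8 h, had 21 counts or fewer in each library, and its call was lost with DESeq2, without the filter and without 7 of the 8 libraries, so the value is a description.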

How the results depend on the processing

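Of 112 calls of single chains, 50 were kept under every alternative run for them and 0 changed sign. DESeq2 kept 104 and lost 8, its size factors kept 110 and lost 2, and testing without the filter on low counts kept 104 and lost 8. Leaving out 1 library kept 502 of these calls and lost 190 over all fits. The replicate block, with 1 number for both genotypes or within genotype, kept all 61 calls of the TNF table. Counts of chains called in RelA-TA-KI cells at 0.5, 1, 3 and 8 h of TNF were 17, 10, 19 and 26 without the filter, 12, 7, 17 and 23 with the replicate block and 13, 9, 19 and 25 with the block within genotype. In WT cells they were 6, 4, 10 and 15 without the filter, 3, 2, 9 and 14 with the replicate block, and 4, 4, 10 and 15 with the block within genotype. Between genotypes untreated and at 3 and 8 h they were 9, 12 and 25 without the filter and 8, 8 and 21 with the replicate block. They were 11, 13 and 24 with the block within genotype, whose genotype p-values do not hold the spread between replicates. For the difference of responses at 3 and 8 h they were 9 and 11, 6 and 11, and 9 and 14 in these fits. The cause of these higher counts was not tested. With 1 library left out, the counts in RelA-TA-KI cells were 0 to 1 at 0.5 h, 0 to 2 at 1 h, 3 to 5 at 3 h and 8 to 13 at 8 h. In WT cells they were 0 to 0, 0 to 0, 2 to 3 and 6 to 6 at these times. Between genotypes they were 0 to 0 untreated, 1 to 3 at 3 h and 5 to 11 at 8 h, and for the difference of responses 1 to 1 at 3 h and 0 to 3 at 8 h. In the second table they were 16 to 17 for genotype, 0 to 8 for LPS at 3 h, 13 to 14 for LPS at 8 h, 0 to 0 for Poly(I:C) at 3 h and 2 to 12 for Poly(I:C) at 8 h. There, a fit without 1 library leaves a condition with 1 library, which is assumed to vary like the others. Chains under 10 CPM rest on few counts, and differences in them were often not detectable at this depth.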

Other observations

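Col19a1, a FACIT chain that was not tested in the second table because of low counts, had its highest raw counts there at 8 h. It had 31 counts in RelA-TA-KI and 29 in WT cells at LPS 8 h, and 20 in RelA-TA-KI and 6 in WT cells at Poly(I:C) 8 h, against 4 in RelA-TA-KI and 2 in WT untreated cells. The 12 libraries not at 8 h or untreated had 1 to 6 counts. Each value is 1 library, and no test was made. Col20a1, another untested FACIT chain, had 14 counts in RelA-TA-KI and 6 in WT cells at LPS 8 h, against 3 in RelA-TA-KI and 9 in WT untreated cells.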
